A study of Mus musculus with 8 samples.

Results

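The laminin genes covered here were the 9 entries of the expression tables named Lama1, Lama2, Lama3, Lama4, Lama5, Lamb1, Lamb2, Lamb3 and Lamc1, chosen by symbol alone from 55276 gene symbols in all. All 9 were listed in every library and all 9 passed the filter on low values in each comparison. The question asked of them was which laminin trimers fibro-adipogenic progenitors (FAPs), the interstitial connective tissue progenitors of muscle, could supply during regeneration. Lamc3, a further γ chain gene, was followed beside them because several trimers need it.

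RNA was measured by poly(A) RNA-Seq in FAPs sorted from the freeze-injured tibialis anterior muscle of mice aged 4 to 6 months. Control FAPs carried the genotype Osr1 flox/+ CAGG Cre+ and Osr1cKO FAPs the genotype Osr1 flox/flox CAGG Cre+, each taken at 3 and at 7 days post injury (dpi), with 2 libraries in each of the 4 groups. Every mouse, controls included, carried the tamoxifen-inducible CAGG-CreER, which is active in all tissues, received tamoxifen on the day of injury and the following days, so that the sorted cells had recombined at least 1 copy of Osr1. Cells of both genotypes were sorted for the eGFP that the recombined Osr1 allele makes, so both groups were selected for an active Osr1 locus. A library held FAPs of 1 mouse at 3 dpi and of 4 pooled mice at 7 dpi.

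Laminins are large secreted proteins of the basement membrane, each built from an α, a β and a γ chain that assemble into a cross-shaped trimer inside the cell before secretion. The α chain ends in globular domains that bind receptors on the cell surface, chiefly integrins and glycosylated dystroglycan, while the short arms polymerise into a sheet that nidogen and perlecan link to the collagen IV network. In skeletal muscle the laminins with the α2 chain encoded by Lama2 surround the myofibre, and loss of LAMA2 causes a congenital muscular dystrophy. Laminins with the Lama4 and Lama5 chains are best known from the walls of vessels, and the Lama3 and Lamb3 chains from epithelia.

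The labels were checked first. Osr1, the deleted gene, was at 105 and 91.0 TPM (a transcript level normalised for gene length and library size) in control FAPs at 3 dpi, and at 70.7 and 71.9 TPM in Osr1cKO FAPs. The 7 dpi levels were 67.6 and 71.6 TPM in controls and 64.4 and 60.8 TPM in Osr1cKO. Both Osr1cKO libraries lay below both controls on each day, by a log2 fold change of -0.45 at 3 dpi (adjusted p = 0.772) and -0.28 at 7 dpi (adjusted p = 0.320). The TPM sums all exons of the gene, including those outside the deleted part, and the controls were heterozygous, so this value is a weak check of the deletion. FAP markers were present throughout, with Pdgfra between 197 and 366 TPM and Dcn between 848 and 2745 TPM. The leukocyte marker Ptprc was at most 0.216 TPM, Pax7 of muscle stem cells at most 2.30 TPM and the epithelial marker Cdh1 at most 0.0203 TPM. Other markers of these and further cells reached more. Among the highest values were 36.1 TPM for Lyz2 and 17.4 TPM for Cd68 (immune), and 14.1 TPM for Myog and 14.0 TPM for Musk (myogenic). Rgs5 (mural cells) reached 63.6 TPM and Tek (endothelial) 58.4 TPM. The tenocyte markers Tnmd and Thbs4 reached 350 and 2868 TPM. Total depth, recovered from the TPM steps, was 36516604 to 51096544 fragments per library. Replicate 1 of the 3 dpi controls stood apart. It differed from the other 3 dpi libraries by a median of 0.239 to 0.248 on the log2 scale, against 0.127 to 0.172 among those, and held 16.8 TPM of the endothelial gene Kdr where the others held at most 2.25. The other endothelial genes did not all follow. Against control replicate 2, Tek, Esam and Vwf were higher in this library, Pecam1 and Tie1 were close, and Cdh5, Emcn, Cldn5 and Egfl7 were lower. Calls and fold changes at 3 dpi that rest on control replicate 1 are also given without it.

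Upstream windows were matched for only some chain genes, and for neither Lamc1 nor Lama4. Among those matched, Lama2 had the widest gap between genotypes at 7 dpi and Lama5 was nearly silent. Lamb1 and Lamb2 were the β chains in use. The upstream sequences of these 4 genes are shown. They come from RefSeq on GRCm38.p6 (the mm10 assembly), are read 5′ to 3′ on the strand of the gene, and end at the RefSeq start or, for Lamb1 and Lamb2, at the first exon of the GENCODE vM21 gene. The Lama2 window lies inside the longer GENCODE gene. Capitals mark GC boxes, the letters GGGCGG on either strand.
Lama2, chr10:27616943-27617192, minus strand: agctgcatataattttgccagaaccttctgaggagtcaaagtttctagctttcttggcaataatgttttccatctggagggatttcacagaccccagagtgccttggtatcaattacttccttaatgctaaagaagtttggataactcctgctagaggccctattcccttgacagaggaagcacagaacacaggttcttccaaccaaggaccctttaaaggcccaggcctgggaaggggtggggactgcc
Lamb1, chr12:31265043-31265233, plus strand: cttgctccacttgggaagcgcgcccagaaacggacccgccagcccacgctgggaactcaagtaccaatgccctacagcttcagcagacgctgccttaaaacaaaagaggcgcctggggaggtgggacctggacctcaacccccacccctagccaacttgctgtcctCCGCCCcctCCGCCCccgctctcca
Lamb2, chr9:108479612-108479735, plus strand: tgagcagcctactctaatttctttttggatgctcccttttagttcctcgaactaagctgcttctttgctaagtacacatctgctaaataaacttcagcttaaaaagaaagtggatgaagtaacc
Lama5, chr2:180225860-180226109, minus strand: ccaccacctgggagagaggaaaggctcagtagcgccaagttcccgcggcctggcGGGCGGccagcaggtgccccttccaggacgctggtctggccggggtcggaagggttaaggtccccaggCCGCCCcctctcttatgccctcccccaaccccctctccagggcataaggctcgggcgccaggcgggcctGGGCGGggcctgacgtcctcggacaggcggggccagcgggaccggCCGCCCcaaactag
Over the 250 bases before the RefSeq start, 4 GC boxes were found for Lama5, 2 for Lamb1, and 0 for Lama2 and for Lamb2. Of all 32817 promoter windows of the same length, 32.7% held at least 1. The GC content was 72.4% for Lama5 and 62.0% for Lamb1, against 47.2% for Lama2 and 43.6% for Lamb2, around a median of 52.4% over all windows. The matches describe these windows and not binding sites. The abundant chain genes lie on several chromosomes of mm10: Lama2 on chromosome 10 from 26980036 to 27619758, Lama4 on chromosome 10 from 38965515 to 39110188, Lamb1 on chromosome 12 from 31265234 to 31329644, Lamb2 on chromosome 9 from 108479736 to 108490530, and Lamc1 on chromosome 1 from 153218922 to 153332786. Values are summed over all exons of a gene, UTRs included. Lama2 shares 631 exonic bases with Gm48084 on the opposite strand, which was at most 0.686 TPM, and whether counting used strand is not given.

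FAPs expressed 5 of the 9 chains strongly: Lamc1, Lamb1, Lamb2, Lama4 and Lama2. Over the 8 libraries the mean level was 529.5 TPM for Lamc1, which ranked between the 229th and the 312th of all symbols in each library, 334 TPM for Lamb1, 207 TPM for Lamb2, 186 TPM for Lama4 and 85.9 TPM for Lama2. The other 4 were lower by orders of magnitude, with means of 0.936 TPM for Lama3, 0.742 TPM for Lama5, 0.518 TPM for Lama1 and 0.238 TPM for Lamb3. Lamb3, the β chain of epithelial laminin, rested on 10 to 34 fragments per library, while Lama2 rested on 10101 to 25058. Values of the low chains therefore carry a counting error that those of the high chains do not.

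**Figure D1:**
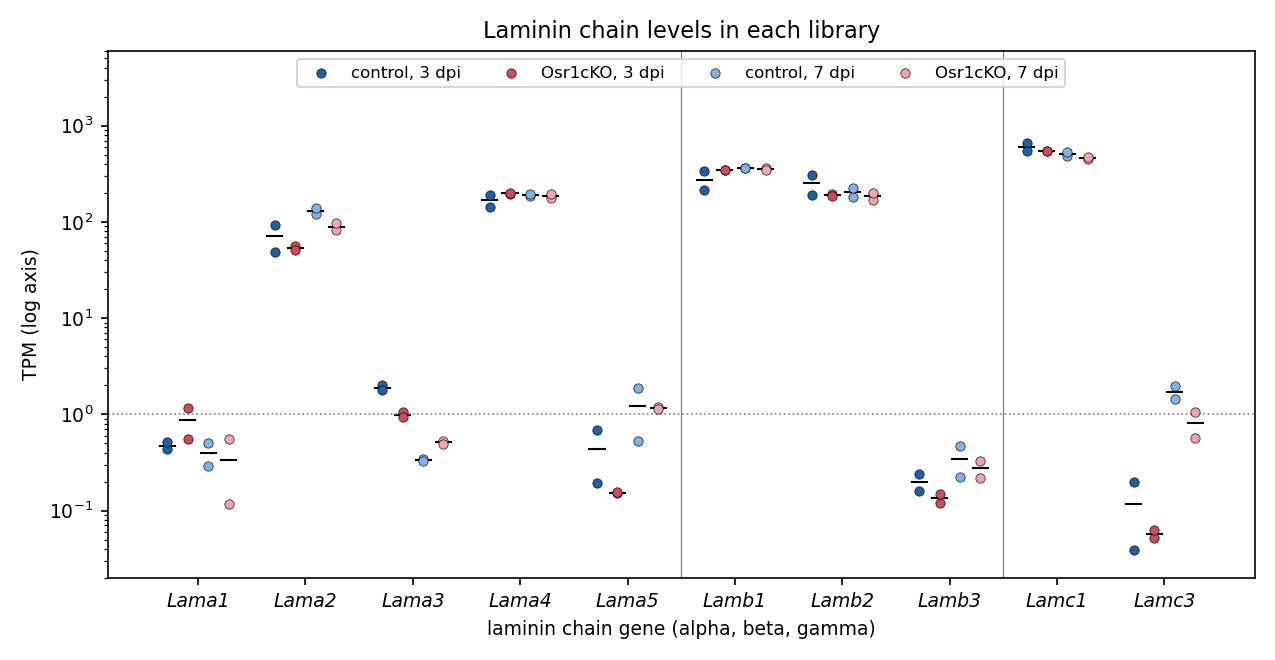
TPM of the 9 laminin chains and of Lamc3 in each of the 8 libraries on a log axis, with points for libraries, bars for group means and a dotted line at 1 TPM. Lama2, Lama4, Lamb1, Lamb2 and Lamc1 lie between 48.6 and 666 TPM, and the other chains stay at or under 2.02 TPM.

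Among the α chains, Lama4 was the most abundant in every library. It was at 144 and 189.5 TPM in control FAPs and at 196 and 201 TPM in Osr1cKO FAPs at 3 dpi. By 7 dpi it was at 188 and 197 TPM in controls and at 177.5 and 193 TPM in Osr1cKO. Its level varied little, with the lowest value in the 3 dpi control library that stood apart.

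Lama2 varied more. At 3 dpi it was at 93.4 and 48.6 TPM in controls and at 55.6 and 51.5 TPM in Osr1cKO. At 7 dpi it was at 122 and 139 TPM in controls and at 81.5 and 96.3 TPM in Osr1cKO. Both 7 dpi control libraries lay above both Osr1cKO libraries, and at 3 dpi the genotypes overlapped, with control replicate 1 alone near the 7 dpi range.

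The rarer α chains stayed near 1 TPM. Lama3, an epithelial α chain, was at 2.02 and 1.78 TPM in controls and at 1.06 and 0.931 TPM in Osr1cKO at 3 dpi, and at 0.345 and 0.329 TPM in controls and 0.532 and 0.494 TPM in Osr1cKO at 7 dpi. The genotypes did not overlap on either day, and their order was opposite on the 2 days. Lama5, whose product is widespread in vessels and epithelia, was at 0.684 and 0.193 TPM in controls and 0.153 and 0.154 TPM in Osr1cKO at 3 dpi. At 7 dpi it was at 1.90 and 0.533 TPM in controls and 1.19 and 1.13 TPM in Osr1cKO, and the groups overlapped. Lama1, known from the early embryo, ranged from 0.118 to 1.18 TPM, both extremes being in Osr1cKO libraries.

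Both common β chains were abundant, and Lamb1 was at 1.61 to 2.13 times the level of Lamb2 in every library but control replicate 1 at 3 dpi, where it was at 0.684 times. Lamb1 was at 212 and 336 TPM in controls and at 344.5 and 348 TPM in Osr1cKO at 3 dpi. Values at 7 dpi were 364 and 361 TPM in controls and 359 and 350.0 TPM in Osr1cKO. Apart from control replicate 1 at 3 dpi, the 7 libraries lay within 336 to 364 TPM.

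Lamb2, the β chain of laminins at the neuromuscular junction, was at 310.3 and 191 TPM in controls and 197 and 185 TPM in Osr1cKO at 3 dpi. At 7 dpi it was at 181 and 225 TPM in controls and 169 and 201.5 TPM in Osr1cKO. Here replicate 1 of the 3 dpi controls was the highest of the 8 libraries, and the genotypes overlapped on both days. Lamb3 was between 0.120 and 0.466 TPM in the 8 libraries.

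Lamc1, the γ chain of most laminins, was at 666 and 546 TPM in controls and at 545 and 549 TPM in Osr1cKO at 3 dpi. At 7 dpi it was at 483 and 527 TPM in controls and at 449 and 470.5 TPM in Osr1cKO. The 7 dpi genotypes did not overlap, although the gap between the nearest libraries was small. Lamc3 was between 0.0387 and 0.198 TPM at 3 dpi and between 0.564 and 1.99 TPM at 7 dpi.

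The order of the 5 abundant chains was read within each group. Lamc1 lay above every other chain and Lama2 below the other 4, with no overlap of libraries, in all 4 groups. Lama4 and Lamb2 overlapped in 3 of the 4 groups, other than control FAPs at 3 dpi, where Lamb2 was above Lama4 and overlapped with Lamb1. This order depends on the gene length used. The TPM were computed over all annotated exons, which are 2.0 times as long as the longest coding transcript for Lama4, 1.71 times for Lamb1 and 1.70 times for Lama2, but 1.09 times for Lamc1 and 1.08 times for Lamb2. Scaled to the longest coding transcript instead, the means became 575 for Lamc1, 573 for Lamb1, 371 for Lama4, 224 for Lamb2 and 146 for Lama2, so that the means of Lamc1 and Lamb1 were level and that of Lama4 was above that of Lamb2. Lama2 had the lowest mean over the 8 libraries, but in control FAPs at 7 dpi it was at 221 beside 219 for Lamb2.

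The chains were then joined into the 13 trimers considered here, each scored by its least abundant chain, since a trimer takes an α, a β and a γ chain in equal numbers. In 4 of the 13, every chain was at 1 TPM or more in every library. These were laminin 411 and laminin 421, which share Lama4 and Lamc1 and differ in the β chain, and laminin 211 and laminin 221, which share Lama2 and Lamc1. The least abundant chain was between 144 and 201 TPM for laminin 411 and between 144 and 197 TPM for laminin 421, and it was Lama2, between 48.6 and 139 TPM, for both Lama2 trimers. Laminin 411 and laminin 421 are known from vessel walls and peripheral nerve, and laminin 211 and laminin 221 from the myofibre and its synapse.

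**Figure D2:**
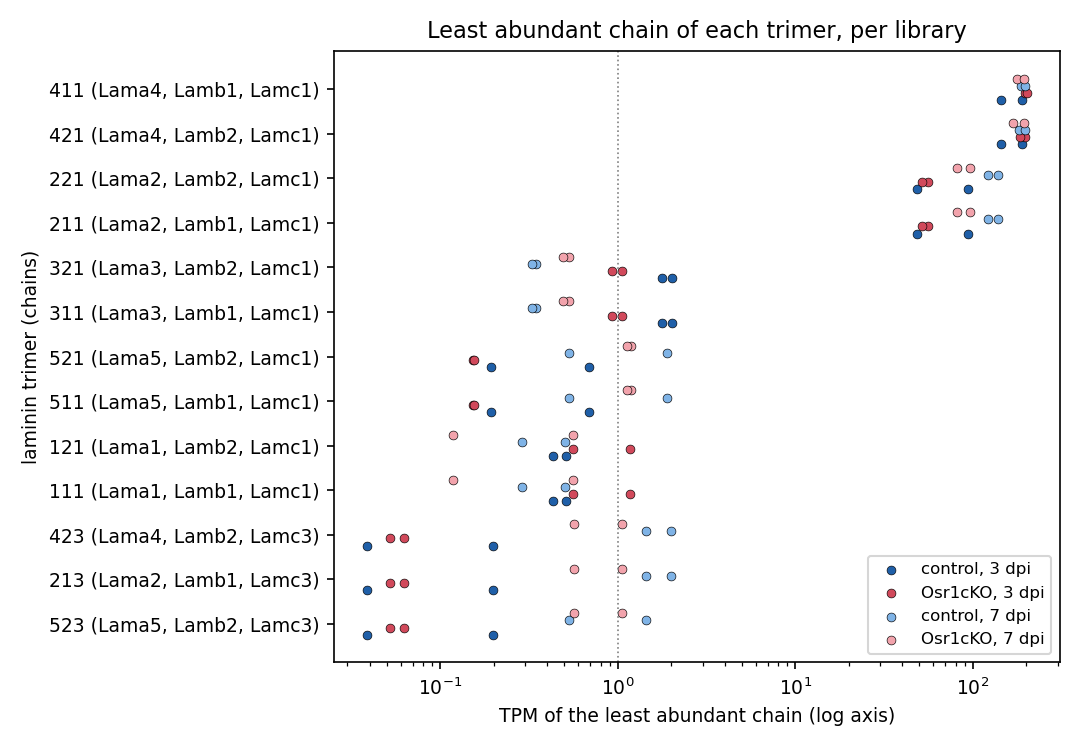
TPM of the least abundant chain of each of 13 laminin trimers in each of the 8 libraries on a log axis, with a dotted line at 1 TPM. The trimers built from Lama2 or Lama4 with Lamb1 or Lamb2 and Lamc1 lie at 48.6 TPM or more, and the other 9 stay at or under 2.02 TPM.

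For the other 9 trimers the least abundant chain was at most 2.02 TPM in any library. Laminin 511 and laminin 521, the main laminins of mature vessels, reached 1 TPM in 3 of the 8 libraries and were limited by Lama5 at up to 1.90 TPM. Laminin 111 and laminin 121 reached it in 1 library, and laminin 311 and laminin 321 in 3, all of them limited by the α chain. The trimers with Lamc3 reached 1 TPM only at 7 dpi, 423 and 213 in 3 libraries and 523 in 2. These are RNA levels, and neither trimer assembly nor secretion was measured.

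In every library the summed β chains exceeded the summed α chains. The α chains summed to 240.5 to 337 TPM and the β chains to 523 to 586 TPM. The ratio of β to α was 2.10 to 2.19 at 3 dpi and 1.74 to 2.02 at 7 dpi, so that the days did not overlap. The α chain was the least abundant partner in laminin 211, 221 and 411 in all 8 libraries, and in laminin 421 Lamb2 was lower than Lama4 in 3 of them. For laminin 221 and 421 this depends on the gene length used. For laminin 211 and 411 the group means with coding transcript lengths kept the α chain lowest. There Lama2 was at 91.0 to 221 and Lama4 at 333 to 397, below Lamb1 at 470 to 622 and Lamc1 at 499 to 658. With the coding transcript lengths the group mean of Lamb2 was below that of Lama4 in all 4 groups, at 200 to 271 against 333 to 397, and in control FAPs at 7 dpi Lama2 (221) and Lamb2 (219) were level.

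Lama2 and Lama4 together made up nearly all α chain RNA, and their balance differed between libraries. Lama2 held 38.8% and 20.2% of the summed α chain TPM in controls at 3 dpi, and 21.9% and 20.3% in Osr1cKO. At 7 dpi it held 39.0% and 41.2% in controls, and 31.2% and 33.0% in Osr1cKO. Apart from replicate 1 of the 3 dpi controls, the 3 dpi libraries were the lowest, the 7 dpi controls the highest and the 7 dpi Osr1cKO libraries in between.

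The mean share of Lama2 was 34.8% in control and 26.6% in Osr1cKO FAPs, a difference of -8.22 percentage points (p = 0.167, BH-adjusted p = 0.267 over 8 such tests, exact two-sided permutation test within days over 36 arrangements, 8 libraries). It was -3.56 points without control replicate 1 at 3 dpi, -12.9 points without control replicate 2 at 3 dpi, and -7.79 points with the coding transcript lengths. No share test could give a p under 0.05, since the smallest p that 36 arrangements can give is 0.0556. The mean share was 25.3% at 3 dpi and 36.1% at 7 dpi, a difference of 10.8 points. This gave that smallest p (p = 0.0556, adjusted p = 0.222, exact permutation test within genotypes). Lamb1 held 40.6% of the β chain TPM in control replicate 1 at 3 dpi and 61.6% to 68.0% in the other 7 libraries. Its mean share differed between genotypes by 6.94 points (p = 0.222, adjusted p = 0.296, exact permutation test with the same limit).

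**Figure D3:**
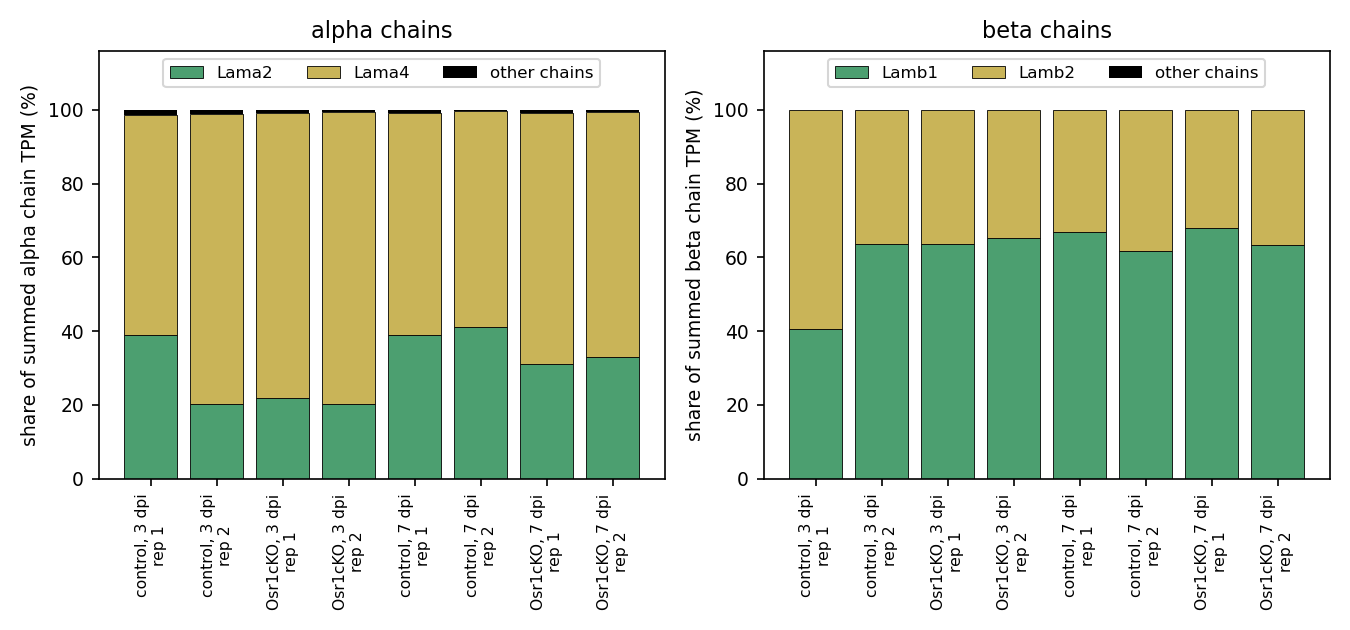
Share of each library's summed α chain TPM (left) and summed β chain TPM (right), in percent, stacked by chain for the 8 libraries. Lama2 takes 20.2% to 41.2% of the α chains, and Lamb1 takes 61.6% to 68.0% of the β chains in all libraries but control replicate 1 at 3 dpi, where it takes 40.6%.

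The first comparison asked whether loss of Osr1 altered the laminin chains of FAPs at 3 dpi. The threshold the study used for this day with DESeq2 (fold change over 1.2 and unadjusted p under 0.05) was applied here to limma. Of the 9 chains 1 passed it, against 985 of 15699 genes tested (6.27%). Neither this chain nor any other gene passed at an adjusted p under 0.1. It was Lama3, at 2.02 and 1.78 TPM in controls and 1.06 and 0.931 TPM in Osr1cKO, with a log2 fold change of -0.54 (SE 0.17, unadjusted p = 0.0226, adjusted p = 0.772 by limma). Its adjusted p was 0.266 to 0.863 over the other settings. The unadjusted p was 0.0514 without control replicate 1, 0.0858 without Osr1cKO replicate 1 and 0.144 without Osr1cKO replicate 2, so the call was lost in each. Fold changes here are on the log2(TPM + 1) scale, which shrinks those of chains near 1 TPM.

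None of the abundant chains passed the threshold at 3 dpi. Lama2 had a log2 fold change of -0.33 (SE 0.31, adjusted p = 0.892), Lama4 of 0.26 (SE 0.17), Lamb1 of 0.37 (SE 0.25), Lamb2 of -0.35 (SE 0.25) and Lamc1 of -0.14 (SE 0.16). These values rested on control replicate 1. Without it they were 0.12 for Lama2, 0.05 for Lama4, 0.03 for Lamb1, -0.02 for Lamb2 and -0.01 for Lamc1. Without control replicate 2 instead, 6 chains passed the unadjusted threshold, as did 18.3% of all genes (2800), with Lama2 at -0.79, Lamb2 at -0.70, Lamb1 at 0.71 and Lama4 at 0.46. In 6 of the 9 chains the 3 dpi genotypes did not overlap, 3 with Osr1cKO higher (Lama1, Lama4, Lamb1) and 3 lower (Lama3, Lama5, Lamb3). Of all genes tested, 36.2% did not overlap. Without control replicate 1, which leaves 1 control library, 4 chains were higher in both Osr1cKO libraries (these and Lama2) and the same 3 lower, against 34.2% and 32.3% of all genes. Over the 9 chains the median log2 fold change was -0.14, beside 0.01 over all genes.

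At 7 dpi the same comparison gave lower values of most chains in Osr1cKO FAPs, led by Lama2. The threshold of the study for this day (fold change over 1.2 and adjusted p under 0.1) was again applied to limma. No chain passed it, and 11 of 16578 genes did (0.0664%). The study applied it to DESeq2 and reported many more genes at 7 dpi, so this count is not the outcome of the study. At the unadjusted threshold 2 of the 9 chains passed, Lama2 and Lamc1, both lower, against 1843 genes (11.1%). In Osr1cKO 8 of the 9 chains had the lower estimate, Lama3 being the exception, and the median was -0.16 against 0.00 over all genes. For Lama5 the sign turned with the deposited TPM unscaled, with a smaller pseudocount and with limma-voom.

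Lama2, at 122 and 139 TPM in controls and 81.5 and 96.3 TPM in Osr1cKO, had a log2 fold change of -0.68 (SE 0.10, 95% interval -0.93 to -0.43, unadjusted p = 0.000723, adjusted p = 0.216 by limma). It was lower in both Osr1cKO libraries than in either control, and leaving out any 1 of the 4 libraries gave -0.77 to -0.59. The adjusted p was 0.0465 to 0.673 over the other settings, and 0.0428 without control replicate 1, so that the call depended on the setting while the direction did not. Lamc1, at 483 and 527 TPM in controls and 449 and 470.5 TPM in Osr1cKO, had a log2 fold change of -0.27 (SE 0.08, unadjusted p = 0.0215, adjusted p = 0.335). Lama4 had -0.18 (SE 0.07, adjusted p = 0.386), Lamb1 -0.16 (SE 0.08, adjusted p = 0.462) and Lamb2 -0.26 (SE 0.13, adjusted p = 0.462). With the deposited TPM unscaled, which moved the median of all genes by about 0.11 on the log2 scale, Lama2 was at -0.55, Lamc1 at -0.13 and Lamb1 at -0.03. In bulk libraries fewer cells of a type and less RNA per cell cannot be told apart.

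**Figure D4:**
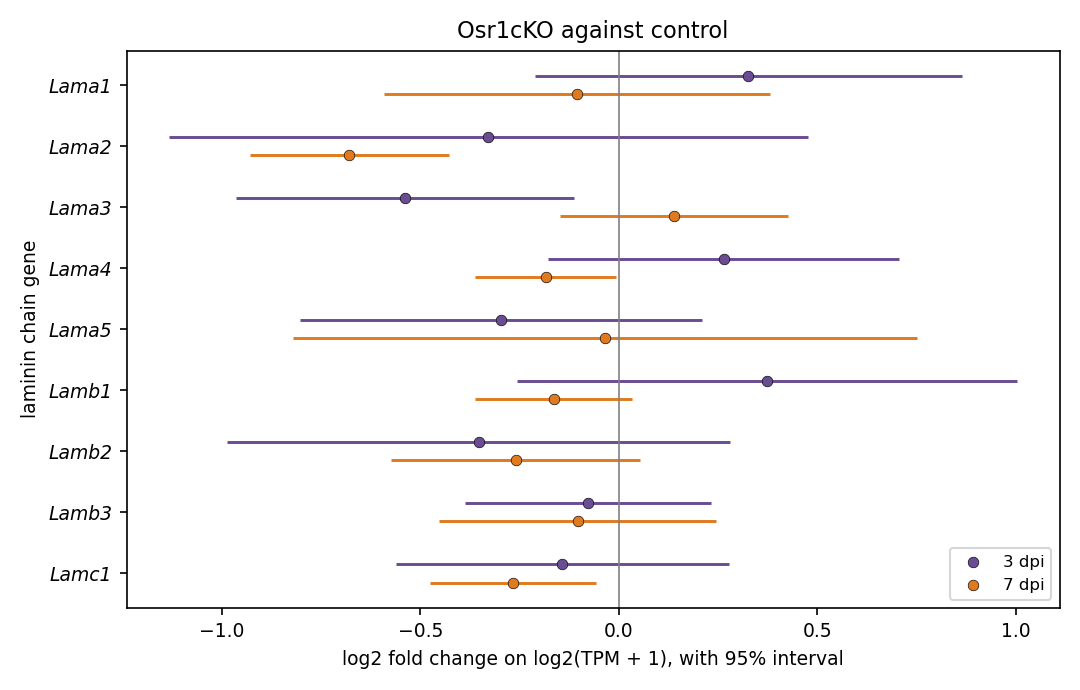
Log2 fold change of each laminin chain in Osr1cKO against control FAPs on the log2(TPM + 1) scale at 3 and 7 dpi, with points for limma estimates and lines for 95% intervals (2 libraries per group). At 7 dpi the interval of Lama2 runs from -0.93 to -0.43, and at 3 dpi the intervals of all chains but Lama3 include 0.

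In 4 of the 9 chains the 7 dpi genotypes did not overlap, Lama2, Lamb1 and Lamc1 with Osr1cKO lower and Lama3 with Osr1cKO higher. Among all genes tested, 53.5% did not overlap, so a count of 4 in 9 is near the background. Lamc3 was at 1.43 and 1.99 TPM in controls and 1.06 and 0.564 TPM in Osr1cKO at 7 dpi (log2 fold change -0.66, SE 0.20, unadjusted p = 0.0190, adjusted p = 0.328).

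Markers of other cells moved with genotype as well, and their part in the laminin values was not tested. Over all genes 6.27% passed by unadjusted p at 3 dpi and 11.1% at 7 dpi. Of 6 tenocyte markers, 4 at 7 dpi (Fmod, Mkx, Scx, Tnmd) and 2 at 3 dpi (Kera, Thbs4) were higher in Osr1cKO by unadjusted p. Their summed level was 2417 to 2664 TPM in controls and 3177 to 3616 TPM in Osr1cKO at 7 dpi, and 578 to 815 TPM against 1599 to 1831 TPM at 3 dpi, with none of the 6 at 0. Most of each sum was Thbs4, which did not pass at 7 dpi. Thbs4 was at 2153 and 2295 TPM in controls and 2587 and 2868 TPM in Osr1cKO at 7 dpi. At 3 dpi it was at 517 and 766 TPM against 1747 and 1552 TPM. Among 10 endothelial markers 2 were higher at 7 dpi (Cdh5, Emcn), the sum being 52.0 to 65.4 TPM in controls and 54.2 to 78.5 TPM in Osr1cKO. Most of this sum was Tek, at 38.9 and 53.0 TPM in controls and 36.2 and 58.4 TPM in Osr1cKO. Of 7 immune markers tested at 7 dpi 1 was higher (Csf1r) and 1 lower (Cd79a), with sums of 49.2 to 53.0 TPM in controls and 45.9 to 65.1 TPM in Osr1cKO. Of 4 Schwann cell markers tested 1 was higher (S100b), with sums of 7.18 to 8.76 against 9.39 to 17.5 TPM. Of 7 myogenic markers tested 1 was lower (Musk), with sums of 12.9 to 41.1 against 15.1 to 15.7 TPM. Of 7 mural cell markers tested 0 passed, with sums of 67.9 to 146 against 89.4 to 124 TPM, and 0 of 7 epithelial markers were high enough to test. Epithelial markers summed to at most 1.09 TPM, with 2 to 5 of the 7 at 0 in each library. At 3 dpi the endothelial sum was 48.4 TPM in control replicate 1 and 19.9 to 25.8 TPM in the other libraries. In that replicate Kdr was at 16.8 TPM and Tek at 25.4 TPM, most of the sum. Of 9 FAP markers, Ly6a and Osr1 at 3 dpi and Osr1 at 7 dpi were lower by unadjusted p. Without control replicate 1 at 3 dpi, Thbs4 of the tenocyte list was higher, and Cd34, Osr1 and the endothelial Kdr were lower. No marker passed at an adjusted p under 0.1 on either day, but with 1 control library left out at 7 dpi 1 or 2 tenocyte markers did.

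The next comparison followed the chains from 3 to 7 dpi within each genotype. In control FAPs 3 of the 9 chains passed (fold change over 1.2 and adjusted p under 0.1), against 54.4% of 17371 genes tested, and in Osr1cKO FAPs 4 passed, against 50%. Day is tied to the number of mice per library, 1 at 3 dpi and 4 at 7 dpi, and the 2 cannot be told apart. Markers of other cells also rose between the days, and their part was not tested. All 6 tenocyte markers rose in both genotypes, as did 5 of 7 mural cell markers tested (1 fell in Osr1cKO), while of 10 endothelial markers 5 rose and 2 fell in controls and 8 rose in Osr1cKO. Of 7 myogenic markers tested 4 rose in controls (Pax7, Myf5, Myod1, Myog) and 1 in Osr1cKO (Myog), of 7 immune markers 2 rose in controls (Lyz2, Adgre1) and 5 in Osr1cKO (those and Cd68, Csf1r, Itgam), and of 4 Schwann cell markers S100b rose in both. Without control replicate 1 at 3 dpi, 2 myogenic and 0 Schwann cell markers passed in controls.

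Lama2 rose in both genotypes. In controls it went from 93.4 and 48.6 TPM to 122 and 139 TPM, a log2 fold change of 1.01 (SE 0.25, adjusted p = 0.0149), and in Osr1cKO from 55.6 and 51.5 TPM to 81.5 and 96.3 TPM, a log2 fold change of 0.65 (SE 0.25, adjusted p = 0.0745). Every 7 dpi library lay above every 3 dpi library of the same genotype. Without control replicate 1 at 3 dpi the rise in controls was 1.43, and without control replicate 2 it was 0.58. In Osr1cKO the rise was 0.58 to 0.75 with 1 library left out, and the call of Lama2 was lost in each of these fits.

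Lama3 fell in both, by 1.09 on the log2 scale in controls (SE 0.12, adjusted p = 0.000661) and by 0.42 in Osr1cKO (SE 0.12, adjusted p = 0.0280). The highest 7 dpi value, 0.532 TPM, was below the lowest 3 dpi value, 0.931 TPM. Lamb1 rose in controls by 0.52 (SE 0.22, adjusted p = 0.0866), a value of 0.14 without control replicate 1 at 3 dpi and of 0.88 without replicate 2. In Osr1cKO Lama5 rose by 0.88 (SE 0.30, adjusted p = 0.0535), from 0.153 and 0.154 TPM to 1.19 and 1.13 TPM, and Lamc1 fell by 0.31 (SE 0.12, adjusted p = 0.0724). With 1 Osr1cKO library left out, the Lama2, Lama5 and Lamc1 calls were lost in each fit. The Lama3 call was lost without replicate 1 at 3 dpi and without replicate 2 at 7 dpi. Where Lama3 kept its call, Lama1 gained one, at -0.75 to -0.25 over these fits. Over all genes the calls were also fewer in these fits, 34.1% to 39.4%. Lama4 did not pass in either genotype (0.30, SE 0.15, adjusted p = 0.144 in controls, and -0.17, SE 0.15, adjusted p = 0.403 in Osr1cKO).

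**Figure D5:**
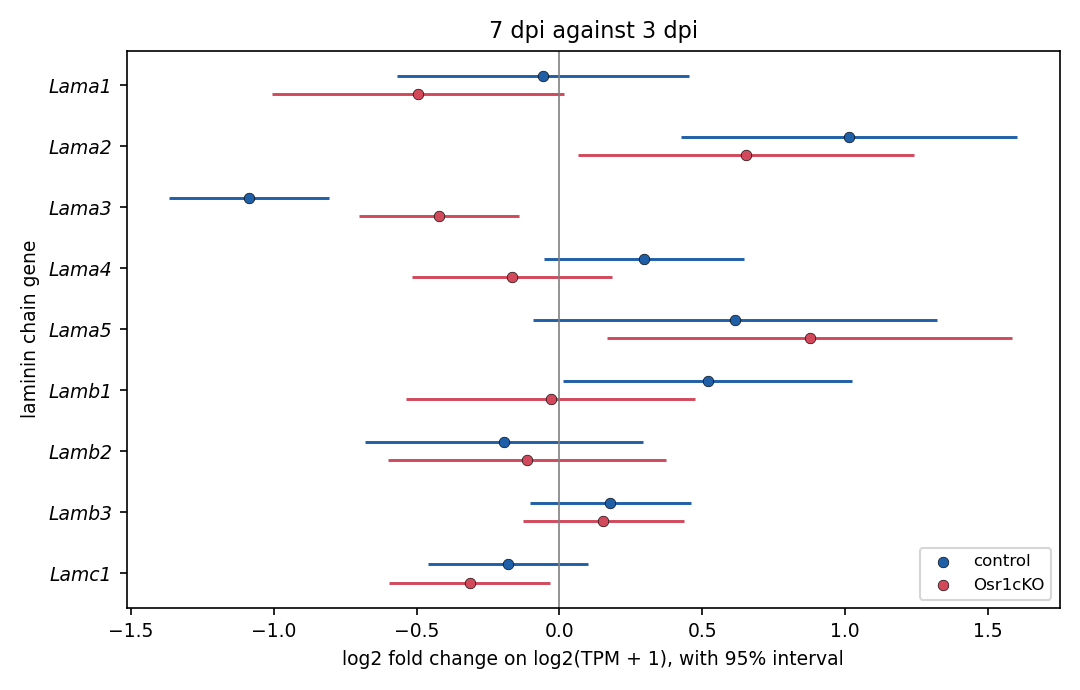
Log2 fold change of each laminin chain from 3 to 7 dpi on the log2(TPM + 1) scale in control and in Osr1cKO FAPs, with points for limma estimates and lines for 95% intervals (2 libraries per group). Lama2 lies above 0 and Lama3 below 0 in both genotypes, at 1.01 and -1.09 in controls.

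Whether the genotype difference changed between days was tested as an interaction. No chain and none of 17371 genes passed at an adjusted p under 0.05 (0%). At an unadjusted p under 0.05, 1177 genes passed by limma (6.78%), among them 1 of the 9 chains, Lama3. Its genotype difference was higher at 7 than at 3 dpi by 0.67 on the log2 scale (SE 0.17, unadjusted p = 0.00531, adjusted p = 0.596). For Lama2 the genotype difference changed between days by -0.36 (SE 0.35, adjusted p = 0.933 by limma), with a 95% interval of -1.19 to 0.47. The data thus did not separate the genotype difference of Lama2 at 3 dpi from that at 7 dpi.

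Partners of laminin in the basement membrane were described next, 15 genes in all, each tested on both days. At 3 dpi 0 of 15 passed the unadjusted threshold (5 higher and 10 lower estimates, median -0.10). At 7 dpi 8 of 15 passed it, against 11.1% of all genes (5.91% lower), all lower in Osr1cKO (Col15a1, Col4a1, Col4a2, Col4a3, Col4a4, Col4a5, Hspg2 and Nid1), with a median of -0.28, and none passed by adjusted p, although Col4a5 did without control replicate 1 (adjusted p = 0.0820 by limma). Nid1, nidogen 1, which ties laminin to collagen IV, was at 1283 and 1477 TPM in controls and 963 and 1051 TPM in Osr1cKO (log2 fold change -0.58, SE 0.11, unadjusted p = 0.00289, adjusted p = 0.245). Col15a1, a collagen next to basement membranes, was at 376 and 368 TPM in controls and 241 and 298 TPM in Osr1cKO (-0.60, SE 0.10, adjusted p = 0.222). In both genes the genotypes did not overlap.

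The collagen IV chains Col4a1 and Col4a2, the most abundant of the list together with Nid1, showed the same order. Col4a1 was at 1016 and 1096 TPM in controls and 849 and 825 TPM in Osr1cKO (-0.47, SE 0.10, unadjusted p = 0.00442, adjusted p = 0.263). Col4a2 had a log2 fold change of -0.46 (SE 0.10, adjusted p = 0.260) and Col4a5 of -0.66 (SE 0.14, adjusted p = 0.252). From 3 to 7 dpi 7 of the 15 partners rose and 0 fell in controls. In Osr1cKO 4 rose and 2 fell, Col4a1 and Col4a2 being those that fell. Of all genes 26.5% rose and 27.9% fell in controls, and 23.9% rose and 26.2% fell in Osr1cKO.

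Of 12 genes for laminin receptors and their dystrophin-associated partners, 0 passed by unadjusted p at 7 dpi (6 higher and 6 lower), against 11.1% of all genes. At 3 dpi 1 of the 10 tested passed by unadjusted p, against 6.27% of all genes. This was Bcam, the Lutheran glycoprotein, a receptor of laminins with the Lama5 chain, at 1.38 and 0.835 TPM in controls and 0.445 and 0.334 TPM in Osr1cKO (log2 fold change -0.59, SE 0.18, unadjusted p = 0.0239, adjusted p = 0.772). Without control replicate 1 it was -0.41 and did not pass (unadjusted p = 0.0588 by limma), and 0 of 10 receptors, 0 of 15 basement membrane genes and 0 of 12 glycosylation enzymes passed. The receptors most abundant in FAPs were Itgb1, the shared β subunit of laminin-binding integrins, at 656 to 884 TPM, and Dag1, which encodes dystroglycan, at 137.5 to 169 TPM. Neither passed the threshold at 7 dpi (Itgb1 0.16, SE 0.09, adjusted p = 0.536, and Dag1 -0.12, SE 0.07, adjusted p = 0.527). Itgb1 was at 705 and 656 TPM in controls and 814 and 848 TPM in Osr1cKO at that time, so its genotypes did not overlap. The laminin-binding integrin subunits Itga3 and Itga6 stayed at or under 3.28 TPM, and Itga7 reached 13.4 TPM.

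Of 12 enzymes that build the laminin-binding glycan of dystroglycan, 1 passed by unadjusted p at 7 dpi (11.1% of all genes) and 0 at 3 dpi (6.27%). It was Pomgnt1, at 22.6 and 21.9 TPM in controls and 30.3 and 28.8 TPM in Osr1cKO (log2 fold change 0.27, SE 0.09, unadjusted p = 0.0302, adjusted p = 0.354). Rxylt1, the next most abundant of these enzymes, was between 20.6 and 32.1 TPM, with a log2 fold change of 0.00 at 7 dpi. In both genotypes 4 of the 12 fell from 3 to 7 dpi and 0 rose. Of all genes 27.9% fell in controls and 26.2% in Osr1cKO, so a count of 4 in 12 is near the background.

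The genes whose profile over the 8 libraries was closest to that of each main α chain were found by the root mean square difference of centred log2 values. For Lama2 these were Tusc2 (0.0643), Socs3 (0.0781) and Cebpd (0.0921), beside a median of 0.718 over the 9733 genes whose SD over the libraries was at least 0.5 of that of Lama2. Socs3, an inhibitor of cytokine signalling, was at 1198 and 632 TPM in controls and 660 and 686 TPM in Osr1cKO at 3 dpi, and at 1378 and 1580 TPM against 999 and 1144 TPM at 7 dpi, and so it too was high in control replicate 1 at 3 dpi. For Lama4 they were Katnal1 (0.0326), Cryzl2 (0.0598) and Lzts3 (0.0626), beside a median of 0.352 over 16846 genes. These lists describe 8 libraries that share the same groups.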

How the data were processed

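FAPs were profiled by stranded paired-end poly(A) RNA-Seq. The authors aligned reads to mm10 with STAR, normalised fragment counts with DESeq2 and deposited TPM per gene symbol for each library. The counter and annotation are not given in the sources used here. The labels name 1 sequencer for all libraries, while the methods name a second without saying which libraries it served. Of 55385 entries per library, 109 further entries of 106 repeated symbols were left out. Fragments were recovered from the TPM with GENCODE vM21 exon lengths. Of values under 50 fragments, 98.65% to 98.91% were whole within 0.02. These gave depth, the filter and limma-voom. PCR duplicates were not marked by molecular identifiers, so fragments are not independent molecules, and depth covers counting error only.

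Genes with at least 10 fragments in 2 libraries and 15 in total (mean TPM of at least 1 where no length was matched) were tested by limma 3.58.1 (R 4.3.3) on log2(TPM + 1) after scaling by a 30% trimmed mean of log ratios, with Benjamini-Hochberg adjustment over all genes tested. Genotype was fitted within each day, and days and interaction over all 8 libraries. The interaction was called at an adjusted p under 0.05. The scripts recovered known changes in simulated data. Those changes were larger than most reported here and lay in genes with more fragments than Lamb3, so smaller changes were not checked. The simulated replicate spread was fixed and equal for all genes, so recovery at the spread of these libraries was not checked either. Chain shares were compared by exact two-sided permutation. The members, lists and tests were chosen with earlier results of these data known. Genes named beside the chains were those of each list that passed at 3 or 7 dpi between genotypes, up to 4 by smallest p, and the 2 most abundant. Other genes named by symbol were chosen after their values were seen. Replicate numbers did not pair the libraries: same-numbered libraries deviated from their group means with a correlation of -0.117 at 3 dpi and 0.0662 at 7 dpi. The 2 libraries of a group came from separate mice or pools of mice. Promoter and gene positions were taken from RefSeq and GENCODE on the same assembly. The coding transcript lengths, and leaving out libraries for the partner and marker lists, were added after seeing the data. Some genes and the results that need them are not reported here.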

Additional observations from a re-analysis of the deposited data

Results flagged for a closer look

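Lama3 and Lamb1 showed opposite genotype orders on the 2 days with no overlap between genotypes on either. Of all genes tested, 36.2% did not overlap at 3 dpi and 53.5% at 7 dpi. The share of genes with opposite orders on the 2 days was not counted. Lama3 was lower in both Osr1cKO libraries at 3 dpi and higher in both at 7 dpi, and the genotype effects differed by 0.665 on the log2 scale (adjusted p = 0.596 by limma). Its levels were 0.329 to 2.02 TPM, on 39 to 270 fragments per library. Lamb1 was higher in both Osr1cKO libraries at 3 dpi and lower in both at 7 dpi. The effects differed by -0.549 (adjusted p = 0.818 by limma), a value that lay between -0.917 and -0.183 with 1 library left out. The nearest control and Osr1cKO libraries were at 336 and 344.5 TPM at 3 dpi and at 361 and 359 TPM at 7 dpi. Without control replicate 1 the 3 dpi log2 fold change of Lamb1 was 0.03.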

How the results depend on the processing

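Of the 9 chains, 1 passed at 3 dpi, and 0 passed with the mean TPM filter, with no filter, with the replicate block or by adjusted p. Leaving out 1 library gave 0 to 6, and a crossed pairing, chosen after seeing the data, gave 1. At 7 dpi, 0 passed, but 1, Lama2, passed with limma-voom and with the replicate block, 2 passed by unadjusted p, and 0 to 1 passed with a library left out. From 3 to 7 dpi, 3 passed in controls (2 to 6 with a library left out) and 4 in Osr1cKO (1 with the mean TPM filter, 1 with no filter, 0 to 2 with a library left out). The interaction count of 0 became 1 by unadjusted p. The Lama2 share difference was -12.88 to -3.561 points with a library left out. The replicate block changed no other chain count by over 1.5 times. Of all genes, 985 passed at 3 dpi (1802 with all 8 libraries in 1 fit, 911 with the replicate block, 1194 with the crossed pairing, 410 to 2800 with a library left out). At 7 dpi 11 passed (0 unscaled, with either other filter or with all 8 libraries, 27 with the replicate block, 188 with limma-voom, 5 to 314 with a library left out). For the interaction 0 passed (3 with a pseudocount of 0.1, 1 with the mean TPM filter, 30 with no filter, 0 to 69 with a library left out).

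Signs turned for small values. Lama5 at 7 dpi became 0.0352 unscaled, 0.0433 with a pseudocount of 0.1 and 0.0855 with limma-voom, and Lamb1 from 3 to 7 dpi in Osr1cKO became 0.0337 unscaled and 0.0502 with the mean TPM filter. For the interaction Lamb3 became 0.00479 unscaled, 0.0253 with a pseudocount of 0.1 and 0.11 with limma-voom, and Lamc1 became 0.00714 unscaled. With 1 library left out the ranges were -0.79 to 0.12 for Lama2 at 3 dpi and, at 7 dpi, -0.34 to 0.13 for Lama1, -0.51 to 0.44 for Lama5 and -0.24 to 0.0288 for Lamb3. In controls from 3 to 7 dpi they were -0.17 to 0.0548 for Lama1 and -0.51 to 0.11 for Lamb2, and in Osr1cKO -0.0724 to 0.0301 for Lamb1. For the interaction they were -0.79 to 0.066 for Lama2, -0.22 to 0.74 for Lama5, -0.23 to 0.39 for Lamb2 and -0.16 to 0.11 for Lamb3. The cause was not tested. With 1 library left in a group, its spread was taken from the others. Levels of Lama1, Lama3, Lama5 and Lamb3 were limited by depth.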
